A study of Bos taurus with 8 samples.

Results

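The genes of the cytosolic ribosomal proteins were described in jejunal tissue of Holstein calves at weaning. They were taken from a table of TPM (a measure of transcript abundance that is corrected for length and scaled to the same total in every library) as every row whose symbol begins with RPL or RPS followed by a number or by P0 to P2, with the RPS6K kinases left out. Rows with the same gene ID were summed. The rule found 134 rows of 84 genes among 50681 rows of 17932 genes. Of these 84 genes, 51 belong to the large subunit (RPL) and 32 to the small subunit (RPS). The remaining gene, RPS19BP1, encodes a protein named for binding RPS19 and is not itself a ribosomal protein. The 84 genes hold 75 of the 76 core ribosomal protein genes that were listed and 8 of their paralogs. RPL41 and RPL39L were not analysed here. RPSA, FAU and RACK1 encode ribosomal proteins or a ribosome-bound protein under other symbols and are given separately.

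The DCLI group was fed 1 g/d of the postbiotic LIC37, dead cells of Limosilactobacillus ingluviei mixed into the milk replacer, and the CON group received the same basic diet without it. Each group had 7 bull calves, of which 4 were sampled at random on day 90, with 1 library per calf, named DCLI1 to DCLI4 and CON1 to CON4. All calves shared the milk step-down on day 82 and complete weaning on day 89, so every library comes from a newly weaned calf and no unweaned calf stands beside them. RNA was enriched by poly(A). The study calls the material jejunal epithelium but describes no step that separates it from the rest of the sample. Each value may therefore be an average over epithelium, immune tissue, stroma and muscle.

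A ribosome is built from ribosomal RNA and about equal numbers of copies of each ribosomal protein, and the genes of these proteins are among the most highly transcribed in any growing cell. Their mRNAs begin with a run of pyrimidines, the TOP motif, through which mTORC1 and LARP1 set how much of them is translated and how stable they are. In the gut, dividing crypt cells and activated lymphocytes have a high demand for new ribosomes, whereas differentiated enterocytes divide no more.

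CON4 stood apart from the other 7 libraries in its cell type markers. The summed TPM of 10 B cell markers was 20.96 to 41.51 in the DCLI libraries, against 19.86 to 39.93 in CON1 to CON3 and 3941 in CON4, and all 10 were highest in CON4. The 10 germinal centre and cell cycle genes summed to 118 to 261 in the DCLI libraries, against 122 to 201 in CON1 to CON3 and 1579 in CON4. The 10 enterocyte genes summed to 20063 to 34583 in the DCLI libraries, against 9666 to 29108 in CON1 to CON3 and 1175 in CON4, where 9 of 10 were lowest and ALPI, the intestinal alkaline phosphatase, was listed at 0. Smooth muscle genes ranged from 860.4 to 2876 in the DCLI libraries and from 1274 to 8125 in the CON libraries, with the highest sum in CON3. Sums of the other marker lists, DCLI before CON, were 729 to 859 and 367 to 906 for T cells, 451 to 1651 and 396 to 2239 for plasma cells, and 81.1 to 438 and 39.3 to 705 for crypt stem cells. They were 835 to 1109.5 and 158 to 1500.3 for goblet cells, 315 to 567 and 449 to 963 for stroma, and 11.8 to 52.7 and 3.99 to 54.3 for liver genes. Without CON4 the stroma sums of the CON group were 746 to 963, above every DCLI library, whereas the other lists still overlapped. The median log2 fold change, DCLI over CON, was -0.80 for stroma (-1.03 without CON4) and 1.17 for enterocyte genes (0.62 without CON4). It was -0.94 for smooth muscle (-1.28 without CON4), 1.06 for goblet cells (0.54 without CON4) and -1.54 for B cells (-0.05 without CON4). The marker lists thus did not differ in CON4 alone. One protocol note names liver as the source of the RNA, but ALB, the albumin gene, was at most 1.07 TPM in any library, whereas VIL1, the brush border gene villin, was at 117 to 1274 TPM. The part of these cell types in the results that follow was not tested, and the comparisons between the groups are also given without CON4 where that moves the value.

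Ribosomal protein genes were among the most abundant transcripts of the jejunum in every calf. They held 25, 27, 27 and 28 of the 50 most abundant genes in DCLI1 to DCLI4, against 26, 25, 30 and 41 in CON1 to CON4. Of the 100 most abundant genes, 53 to 58 were ribosomal in the DCLI libraries and 52 to 72 in the CON libraries. The DCLI counts lay within the range of the CON counts in both rankings.

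The share of the library taken by all 84 genes did not separate the groups. It was 20.7%, 20.5%, 21.0% and 24.1% of TPM in DCLI1 to DCLI4, against 21.1%, 19.7%, 24.6% and 35.0% in CON1 to CON4. The group means were 21.6% ± 1.67 in the DCLI group and 25.1% ± 6.91 in the CON group (SD, n = 4 each), a difference of -3.54 percentage points. CON4 lay above every other calf, and without it the CON mean was 21.8% ± 2.55 (n = 3) and the difference was -0.245 points. In a bulk library, a smaller number of cells rich in ribosomal mRNA and less such mRNA per cell cannot be told apart. As TPM is a share, a very abundant gene of another kind also moves it: FABP6, an ileal bile acid binding protein, took 0.000% to 2.56% of TPM in the DCLI libraries, against 6.90%, 2.60%, 5.02% and 0.107% in CON1 to CON4. With FABP6 taken out of the total, the ribosomal share was 21.7% ± 1.64 in the DCLI group and 26.0% ± 6.48 in the CON group, or 22.95% ± 2.87 in the CON group without CON4 (n = 3).

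**Figure D1:**
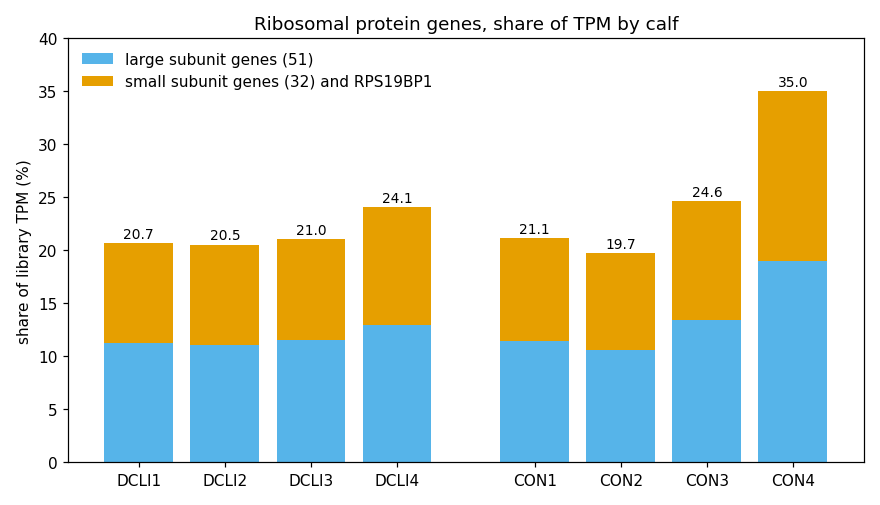
Share of each library's TPM (%, vertical axis) held by the 84 ribosomal protein genes, 1 bar per calf with the DCLI calves on the left, divided into the 51 genes of the large subunit and the 32 genes of the small subunit with RPS19BP1. The DCLI calves lie between 20.5% and 24.1%, within the range of 19.7% to 35.0% of the CON calves, and CON4 is the only calf above 24.6%.

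Both subunits moved in step. Genes of the large subunit took 11.7% ± 0.881 of TPM in the DCLI group and 13.6% ± 3.76 in the CON group, and genes of the small subunit 9.87% ± 0.801 and 11.5% ± 3.15, in the same order. Without CON4 the CON means were 11.8% ± 1.47 for the large subunit and 9.97% ± 1.08 for the small subunit (n = 3). The ratio of the large subunit sum to the small subunit sum was 1.19 in both groups (SD 0.0194 in DCLI and 0.0160 in CON) and stayed between 1.17 and 1.21 in all 8 libraries, CON4 included at 1.18. The ratio thus spanned a far narrower range than the share itself.

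Single genes differed widely in level. Among the 10 most abundant were RPS29, RPS28, RPL37, RPLP1, RPL27A, RPL23, RPL31, RPS15 and RPS12, with means over all calves of 4873 TPM (RPS12) to 10624 TPM (RPS29). RPS29, a small zinc-binding protein of the small subunit head, was at 9839.5, 8844, 9668 and 10851 TPM in DCLI1 to DCLI4, against 10204, 9753, 9515 and 16318 TPM in CON1 to CON4. The values of the other 7 calves lie close together and that of CON4 is far above them. RPS28, which lies near the mRNA exit of the small subunit, was at 7324, 8246, 7414 and 8586 TPM in the DCLI calves, against 6777, 7071, 10885 and 10568 TPM in the CON calves, and here CON3 was as high as CON4. At the low end, the 5 least abundant were RPL3L, RPL10L, RPL26L1, RPL7L1 and RPL22L1, all paralogs, with means of 1.01, 2.77, 42.0, 50.1 and 63.6 TPM. RPS19BP1 had a mean of 86.2 TPM. The least abundant core gene was RPS26, at a mean of 707 TPM, in contrast to the 10624 TPM of RPS29, although the ribosome holds their products in about equal number.

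All 84 genes passed the filter on low values and entered the comparison of the DCLI group with the CON group, which asked whether the postbiotic altered the jejunal transcriptome at weaning. RPL3L only just passed, with a TPM of 1 or more in DCLI2, DCLI3, DCLI4 and CON3 alone, and it left the test when any of these was left out. The test was limma on log2(TPM + 1), and p-values were adjusted over all 13228 genes tested. None of the 84 genes passed the test: 0 had an adjusted p under 0.05, where the background was 0.0% of all genes, and at an unadjusted p below 0.05 there were 0, where the background was 7.08% (4.09% higher in the DCLI group and 2.99% lower). These backgrounds belong to limma on TPM. The study reported differentially expressed genes from the same libraries with DESeq2, a different test that could not be repeated here. No gene of the 84 had values that did not overlap between the groups, against 5.4% of all genes tested (2.28% with the DCLI group above). The lowest p among the 84 was 0.143, that of RPL3L, and the lowest adjusted p was 0.739.

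The estimates were small and mostly below 0. The log2 fold change, DCLI over CON, was negative for 79 genes and positive for 5, with a median of -0.18 and a range of -0.49 to 0.37. Over all genes tested the median was -0.06, and 56.5% of the estimates were negative. All 75 core genes had a negative estimate, and the 5 positive ones were all paralogs. Of the 8 paralogs, 3 were negative (RPS4Y1 -0.35, RPL26L1 -0.25 and RPL7L1 -0.12), and the median of the 8 was 0.01. Among the 5 positive ones, RPL10L was at 0.00 and RPL36AL at 0.02. Without CON4 the estimates centred on 0, with 34 genes higher and 50 lower, a median of -0.01 and a range of -0.19 to 0.35. The median over all genes was then 0.01, and the lowest adjusted p among the 84 was 0.592. No gene of the 84 was then at an unadjusted p below 0.05, against a background of 10.1%. The estimates thus lay on both sides of 0 once 1 CON calf was set aside.

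The precision of the comparison can be read from the intervals. The median SE was 0.27, and the median 95% interval ran from -0.79 to 0.41. For 78 of the 84 genes the interval lay within a log2 fold change of 1 in either direction. A shift of that size was thus outside the interval for most ribosomal protein genes, whereas shifts smaller than these intervals were not detectable with 4 calves per group.

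**Figure D2:**
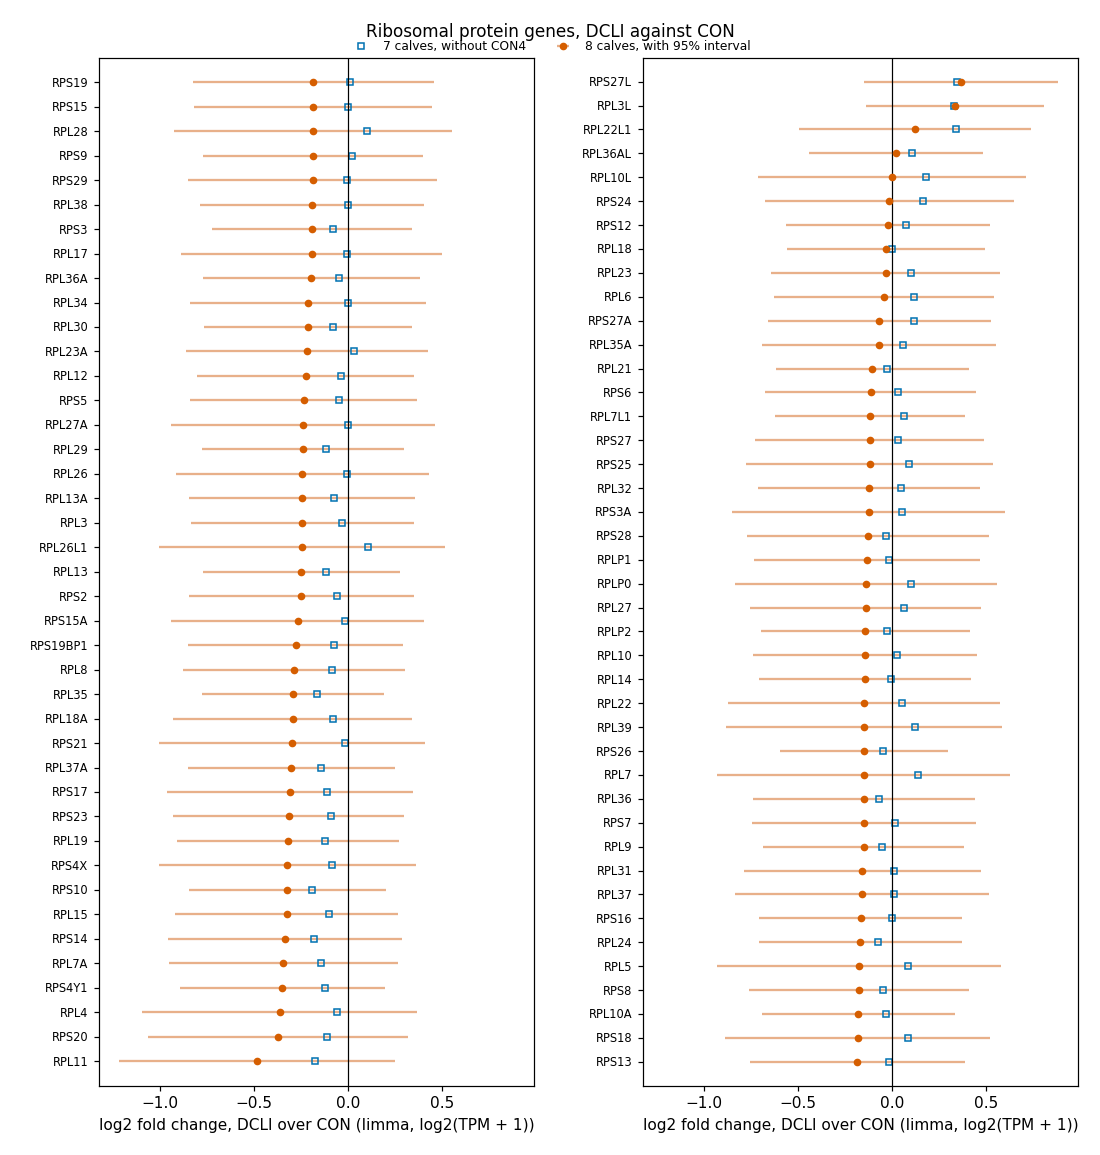
Log2 fold change of DCLI over CON on the log2(TPM + 1) scale (horizontal axis) for 83 of the 84 genes, highest estimate at the top right and lowest at the bottom left. Filled points with bars are the estimates and 95% intervals from all 8 calves, and open squares are the estimates without CON4. Every bar crosses 0, and the squares centre on 0 (median -0.01) where the points centre on -0.18.

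Among the proteins with a known place in the ribosome, the 3 stalk genes gave estimates near each other with all calves but not without CON4. RPLP0, RPLP1 and RPLP2 form the stalk that recruits translation factors to the large subunit. RPLP0 was at 2928, 2523, 2756 and 3891 TPM in the DCLI calves, against 3107, 2792, 2484 and 5425 TPM in the CON calves, with a log2 fold change of -0.14 (SE 0.31). RPLP1 was at 6303 to 7752 TPM in the DCLI calves and 6390.2 to 9618 TPM in the CON calves, with a log2 fold change of -0.13 (SE 0.27). RPLP2 was at 2866 to 3525 TPM in the DCLI calves and 2719.7 to 4408 TPM in the CON calves, with a log2 fold change of -0.14 (SE 0.25). The DCLI calves lay within the range of the CON calves for RPLP0 and RPLP2, and for RPLP1 the ranges overlapped. Without CON4 the log2 fold change of RPLP0 turned to 0.10, and those of RPLP1 and RPLP2 were -0.02 and -0.03.

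RPL5 and RPL11 form a complex with the 5S ribosomal RNA, which also binds MDM2 when ribosome assembly fails. RPL11 had the lowest estimate of all 84 genes. It was at 1905, 1629, 2039.8 and 2149 TPM in the DCLI calves, against 2275, 2081, 2166 and 5099 TPM in the CON calves, with a log2 fold change of -0.49 (SE 0.32, adjusted p = 0.743). CON4 was far above every other calf, and without it the log2 fold change of RPL11 was -0.18 (adjusted p = 0.746). Its partner RPL5 was at 1162, 1004, 1206 and 1307 TPM in the DCLI calves, against 735, 1176, 1539 and 2242 TPM in the CON calves. The CON calves lay on both sides of the DCLI calves, and the log2 fold change of RPL5 was -0.17 (SE 0.33), turning to 0.08 without CON4.

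The next lowest estimates belonged to RPS20, RPL4, RPS4Y1 and RPL7A. RPS20, which lies in the small subunit head, was at 1953, 2017, 2022 and 2324 TPM in the DCLI calves, against 2274, 1839.8, 2701 and 4609 TPM in the CON calves (log2 fold change -0.37, SE 0.30). RPL4, which lines the tunnel through which the new protein leaves, was at 1044.5, 812, 1045 and 1156 TPM in the DCLI calves, against 908, 1098, 1153 and 2457 TPM in the CON calves (log2 fold change -0.37, SE 0.32). RPL7A, also a protein of the large subunit, was at 1981, 1613, 2044.5 and 2286 TPM in the DCLI calves, against 2358, 2016, 2164 and 3782 TPM in the CON calves (log2 fold change -0.35, SE 0.27). In each of these genes CON4 was the highest calf by a wide margin and the remaining CON calves overlapped the DCLI calves. The log2 fold changes without CON4 were -0.11, -0.06 and -0.15 for RPS20, RPL4 and RPL7A, in that order.

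CON4 carried higher levels of nearly every ribosomal protein gene. It was the highest of the 8 libraries for 77 of the 84 genes, a position it held for 39.8% of all genes tested. The level in CON4 divided by the mean of the other 7 libraries had a median of 1.63 over the 84 genes and of 1.07 over all genes tested. For the 1119 other genes with a mean of at least 100 TPM the median ratio was 0.73, and 28.0% of them were highest in CON4. The ratio was uneven, from 0.71 for RPL3L to 2.55 for RPL26L1. RPL11 (2.51), RPL4 (2.38), RPS21 (2.2), RPS20 (2.13), RPL7 (2.06) and RPS15A (2.02) were at the high end. RPS27L (0.81), RPL36AL (1.198) and RPS12 (1.27) were at the low end among the genes of the rule for named genes, and RPL18 (1.08), noted after its value was seen, lay with them. Among the 7 genes that were not highest in CON4 were RPL3L (highest in DCLI2), RPS27L and RPL18 (highest in DCLI4), and RPL21, RPL24 and RPS28 (highest in CON3). These values stand beside a B cell marker sum of 3941 TPM in CON4, and the part of B cells in them was not tested.

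**Figure D3:**
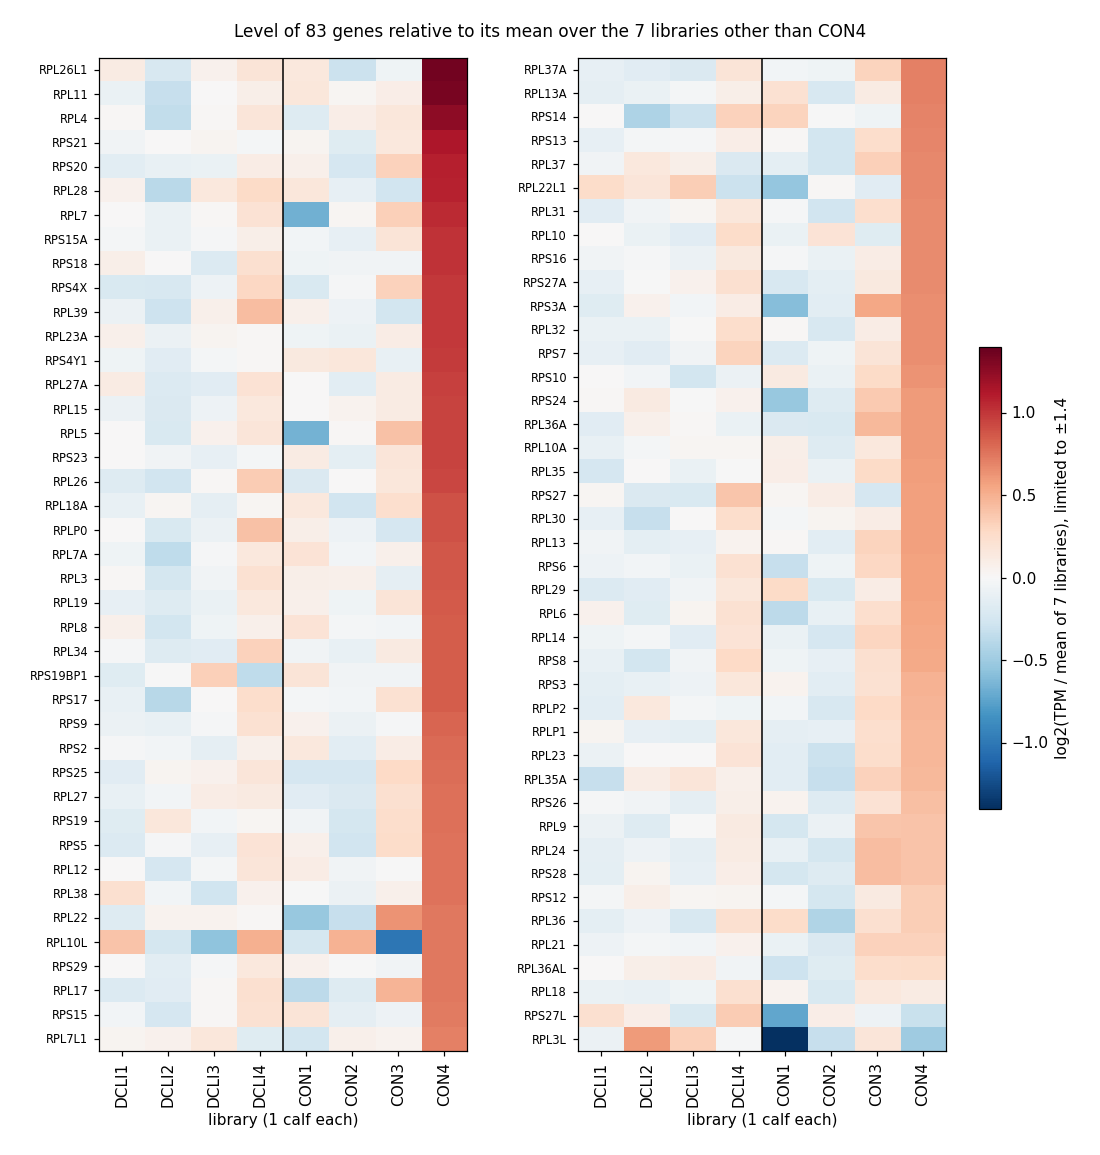
Level of 83 of the 84 genes (rows) in each library (columns, DCLI on the left of the line) as log2 of its TPM over its mean in the 7 libraries other than CON4, with colours limited to ±1.4. Rows are sorted by CON4, whose column is red or pale red in all rows but those of RPS27L and RPL3L at the bottom right, with a median ratio of 1.63.

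As most members were higher in CON4, their levels were also measured relative to the summed member TPM of the same library. On that scale 44 genes were higher in the DCLI group and 40 lower, with log2 fold changes of -0.30 (RPL11) to 0.55 (RPS27L), a lowest p of 0.0902 and a lowest adjusted p of 0.826. As the member sum is made equal in every library, estimates on both sides of 0 largely follow from the scale itself. The median over all genes tested was 0.10 on this scale, against -0.06 on the TPM scale. RPL11 held 9.22, 7.94, 9.69 and 8.93 per mille of the member sum in the DCLI calves, against 10.8, 10.6, 8.79 and 14.6 per mille in the CON calves. The share of the member sum held by each gene differed between libraries to varying degrees. For 58 of the 84 genes the highest of the 8 shares was less than 1.5 times the lowest, and the median of that ratio was 1.38. It was largest for RPL3L (4.31), RPL10L (3.54) and RPS27L (2.44), all paralogs.

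Spread between calves was also measured over the 7 libraries other than CON4. The SD of log2(TPM + 1) over these 7 libraries had a median of 0.18 over the 84 genes, 0.30 over all genes tested and 0.27 over the 1119 other genes with a mean of at least 100 TPM. The steadiest were RPL23A (0.08), RPS16 (0.09), RPS29 (0.09), RPS21 (0.10) and RPS15A (0.10). RPL23A, which docks the signal recognition particle at the mouth of the exit tunnel, was at 2187, 1958, 2143 and 2108 TPM in the DCLI calves, against 1989, 1943, 2233 and 4121 TPM in the CON calves. Apart from CON4, these values all lie close to each other, which the choice of the steadiest genes over those 7 libraries entails. RPS21, a small protein of the small subunit, was at 2857, 2974, 3048 and 2905 TPM in the DCLI calves, against 3045, 2646, 3286 and 6524 TPM in the CON calves. CON4 was again the highest, and the closeness of the other 7 calves again follows from that choice.

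The most variable genes over those 7 libraries on the log2(TPM + 1) scale were RPL10L (SD 0.40), RPL22 (0.37), RPS27L (0.35), RPS3A (0.34) and RPL5 (0.33). As a ratio of the highest to the lowest TPM, RPL3L varied more (4.18, against 2.83 for RPL10L), since the added 1 shrinks differences at its low level. RPL22 encodes a large subunit protein that cells can do without. It was at 979, 1151, 1148 and 1124 TPM in the DCLI calves, against 772, 889, 1722 and 1857 TPM in the CON calves. RPS3A, a small subunit protein, was at 3081, 3607, 3390.2 and 3728 TPM in the DCLI calves, against 2301, 3137, 5045 and 5466 TPM in the CON calves. For RPL22 all DCLI calves lay above CON1 and CON2 and below CON3 and CON4, and for RPS3A CON2 lay among the DCLI calves.

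CON1 and CON3 were at opposite ends for a few of these genes. The level in CON3 over that in CON1 had a median of 1.13 over the 84 genes and was below 1 for 23 of them. It exceeded 1.8 for 6 genes, which were RPS24 (1.86), RPL7 (2.01), RPL5 (2.09), RPS3A (2.19), RPL22 (2.23) and RPL3L (3.11), a comparison chosen after the values were seen. RPL7, a large subunit protein, was at 1242, 1153, 1244 and 1414 TPM in the DCLI calves, against 772, 1256, 1554 and 2539 TPM in the CON calves. The smooth muscle marker sum was 8125 TPM in CON3 and 3116 TPM in CON1, and its part in this contrast was not tested.

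Paralogs replace or accompany a core protein in particular cells. Their mRNA formed a small part of each pair except for RPL36AL. The share of RPL36AL in the summed TPM of RPL36A and RPL36AL was 36.9%, 34.6%, 35.6% and 34.9% in the DCLI calves, against 33.1%, 35.0%, 31.2% and 29.3% in the CON calves. Its lowest value was again that of CON4, and its log2 fold change was 0.02 (SE 0.20), or 0.10 without CON4. RPL7L1 held 2.84% to 4.01% of its pair in the DCLI calves and 2.90% to 4.79% in the CON calves, RPL26L1 1.58% to 2.16% and 1.43% to 2.35%, and RPS4Y1 4.19% to 5.53% and 3.79% to 6.36%, in the same order. For these 3 paralogs the CON range enclosed the DCLI range or all but its edge.

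On the log2(TPM + 1) scale RPS27L had the highest estimate of the 84 genes. It is a paralog of RPS27 and, in human cells, a target of p53. It was at 272.1, 249.3, 201.6 and 300.0 TPM in the DCLI calves, against 141.7, 249.5, 221.9 and 189.0 TPM in the CON calves. CON1 and CON4 lay below all DCLI calves, and CON2 and CON3 lay among them. The log2 fold change was 0.37 (SE 0.23, adjusted p = 0.739) and, without CON4, 0.35 (adjusted p = 0.633). It was 0.21 without CON1, the lowest calf, and 0.11 with weights for the libraries. RPS27L held 8.64%, 9.24%, 7.63% and 7.52% of its pair with RPS27 in the DCLI calves, against 4.69%, 7.58%, 8.47% and 4.29% in the CON calves. CON1 and CON4 were the low ones, and the others overlapped the DCLI calves.

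RPL22L1, which in mice is raised when RPL22 is lost, was at 71.0, 66.6, 75.2 and 48.2 TPM in the DCLI calves, against 40.8, 59.7, 53.2 and 94.1 TPM in the CON calves. Its log2 fold change was 0.12 (SE 0.27) with all calves and 0.34 (adjusted p = 0.592) without CON4. Its share of the pair with RPL22 was 6.76%, 5.47%, 6.15% and 4.12% in the DCLI calves, against 5.02%, 6.29%, 2.999% and 4.82% in the CON calves, so the groups overlapped on this measure as well.

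RPL3L and RPL10L, known from striated muscle and from testis, were near the limit of what TPM records. RPL3L was at 0.99, 1.59, 1.32 and 1.04 TPM in the DCLI calves, against 0.38, 0.84, 1.18 and 0.74 TPM in the CON calves (log2 fold change 0.34, SE 0.21). RPL10L was at 3.37, 2.15, 1.73 and 3.60 TPM in the DCLI calves, against 2.16, 3.59, 1.27 and 4.25 TPM in the CON calves (log2 fold change 0.00, SE 0.31, or 0.18 without CON4). On the log2(TPM + 1) scale, fold changes of such low genes are understated. With log2(TPM + 0.1) the log2 fold change of RPL3L was 0.65, above the 0.37 of RPS27L. RPS4Y1, which bears the name of the human Y-linked copy of RPS4X, was at 83.2, 77.7, 85.1 and 87.9 TPM in the DCLI calves, against 95.7, 97.2, 81.0 and 171.7 TPM in the CON calves (log2 fold change -0.35, SE 0.24, or -0.12 without CON4). Reads shared by similar copies, and by the many processed pseudogenes of ribosomal protein genes, are divided by RSEM from its model. The levels of the paralogs, and those of the core genes, are therefore uncertain.

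**Figure D4:**
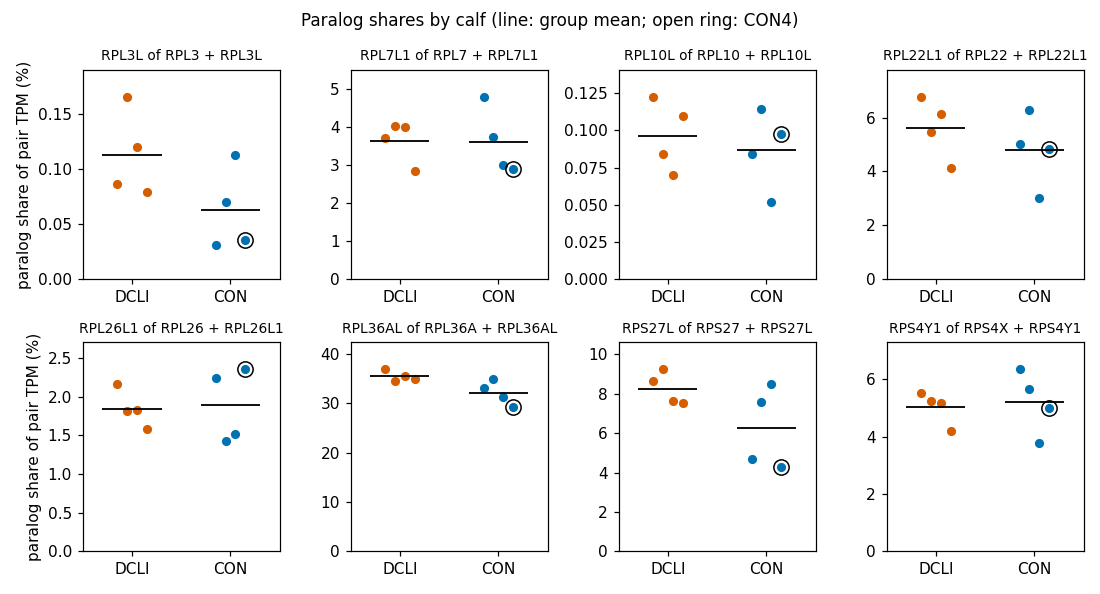
Share of each paralog in the summed TPM of the paralog and its core gene (%, vertical axes starting at 0), 1 point per calf with DCLI on the left, group means as lines and CON4 ringed. RPL36AL holds 29.3% to 36.9% of its pair and RPL3L and RPL10L less than 0.2% of theirs, and the groups overlap in all 8 panels.

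Of the 84 genes, 57 had 1 row in the table and 27 had several transcript entries, 77 in all. The entries carry no transcript names here and are lettered by their mean TPM. In 16 of the 27 genes the leading entry held over 85% of the gene's TPM in every library. Entries whose share spanned more than 20 percentage points were found in 5 genes (RPS24, RPL6, RPS14, RPL35A and RPL22), noted after their values were seen.

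RPS24, a small subunit protein whose last exons are alternatively spliced in mammals, had a different order of entries in CON4. Entry C held 7.501%, 7.75%, 10.3% and 4.12% of its TPM in the DCLI calves, against 14.1%, 4.79%, 5.77% and 50.4% in the CON calves. Entry B held 46.1%, 43.7%, 41.0% and 50.7% in the DCLI calves, against 37.8%, 37.0%, 34.6% and 4.90% in the CON calves. Entry A stayed between 42.5% and 54.7% in all 8 libraries. Entries B and C thus had traded places in CON4, the library with 3941 TPM of B cell markers, whose part in this was not tested.

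**Figure D5:**
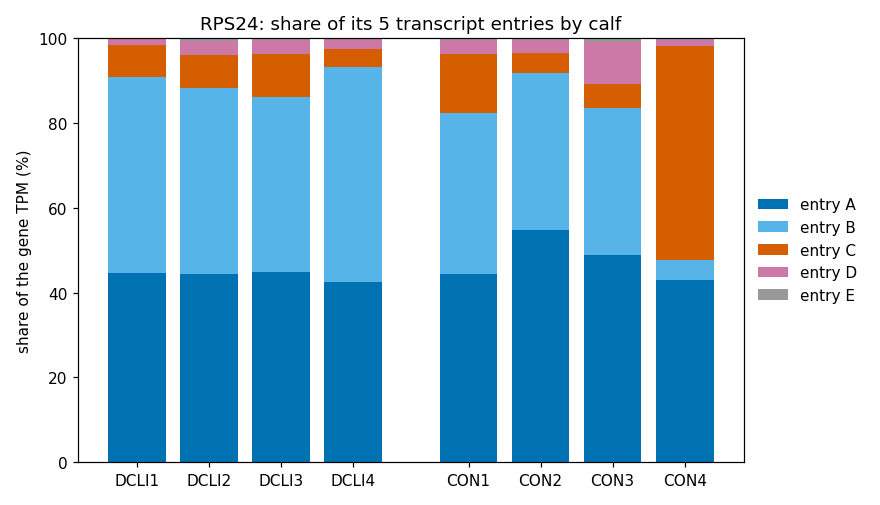
Share of the TPM of RPS24 (%, vertical axis) held by each of its 5 transcript entries, 1 bar per calf with DCLI on the left. Entry C holds 50.4% in CON4 and 4.12% to 14.1% in the other 7 calves, and entry B holds 4.90% in CON4 and 34.6% to 50.7% elsewhere.

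The other genes with shifting entries had no such split at CON4, and their shares overlapped between the groups. Entry B of RPL35A held 25.4%, 0.04%, 0.03% and 27.3% in the DCLI calves, against 0.05%, 25.7%, 0.14% and 23.3% in the CON calves, so it was near 0 in 4 calves and at 23.3% or more in the others, with calves of both groups on either side. Entry B of RPL6 held 31.5%, 20.9%, 39.0% and 0.00% in the DCLI calves, against 0.00%, 0.00%, 13.8% and 0.00% in the CON calves. Entry B of RPS14 held 0.00% to 24.5% in the DCLI calves and 0.00% to 28.1% in the CON calves, and entry B of RPL22 held 29.6% to 46.4% and 22.2% to 41.6%. RSEM assigns reads shared by similar entries from its model and can list an entry at 0, so these shares are estimates that no other file here checks.

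The ribosomal genes with other symbols gave the same picture. RPSA, the small subunit protein also called the laminin receptor, was at 1813 to 3253 TPM in the DCLI calves and 2063 to 3961 TPM in the CON calves (log2 fold change -0.21, SE 0.30, or -0.04 without CON4). FAU encodes RPS30 as a fusion to a ubiquitin-like protein, and RACK1 is a scaffold bound to the small subunit. The log2 fold change was -0.28 (SE 0.22) for FAU and -0.26 (SE 0.27) for RACK1, or -0.18 and -0.12 without CON4. RPSA, FAU and RACK1 were each highest in CON4, at 1.60, 1.41 and 1.54 times the mean of the other 7 libraries, in that order.

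Other genes of translation passed no adjusted threshold either. Of 19 elongation factors and other TOP mRNAs, 0 had an unadjusted p under 0.05, with a median log2 fold change of -0.18 and, without CON4, 0.01. Of 22 initiation factors, 0 were higher and 1 was lower at an unadjusted p under 0.05, against 4.09% and 2.99% of all genes tested. The lower gene was EIF3CL, at 34.8 to 56.6 TPM in the DCLI calves and 56.03 to 106.7 TPM in the CON calves (adjusted p = 0.696). The median of the 22 was -0.23, or -0.03 without CON4. Of 14 genes of mTORC1 and TOP control, 0 passed, with a median of -0.14, or -0.04 without CON4. As in the ribosomal protein genes, the medians of these lists moved close to 0 once CON4 was left out.

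Genes for ribosome assembly showed the largest excess in CON4 among the lists of translation genes. These 38 genes, which process ribosomal RNA and mature the subunits in the nucleolus, summed to 758 to 927 TPM in the DCLI libraries, against 715 to 936 TPM in CON1 to CON3 and 2169 TPM in CON4. In 37 of the 38 CON4 was highest, at a median of 2.44 times the mean of the other 7 libraries, against 1.63 for the ribosomal protein genes. At an unadjusted p below 0.05 there were 0 of the 38, and the median log2 fold change was -0.33 with all calves and -0.02 without CON4.

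Mitochondrial ribosomal proteins, which are built into a separate ribosome, had a smaller excess in CON4. The median ratio of CON4 to the mean of the other 7 libraries was 1.25 for 49 genes of the mitochondrial large subunit and 1.38 for 29 genes of the small subunit, and the median log2 fold changes between the groups were -0.07 and -0.13, or 0.02 and -0.02 without CON4. At an unadjusted p under 0.05, 1 gene of the large subunit was lower (MRPL20), and 1 gene of the small subunit was higher (MRPS36) and 1 was lower (MRPS6). Over all genes tested, 4.09% were higher and 2.99% lower at that threshold. MRPS6 was at 48.3, 52.9, 64.9 and 60.0 TPM in the DCLI calves, against 120.5, 89.8, 227.0 and 76.8 TPM in the CON calves (log2 fold change -1.05, SE 0.32, adjusted p = 0.692). Every DCLI calf was below every CON calf for MRPS6, as was so for 3.11% of all genes tested, and the gene did not pass the adjusted threshold. The same order held for 2 of the 49 genes of the mitochondrial large subunit and for 1 of the 22 initiation factors.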

How the data were processed

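RNA-seq of jejunal tissue from 8 calves was used, 4 of the DCLI group and 4 of the CON group, grouped by the treatment labels. The authors filtered reads with SOAPnuke, aligned them with HISAT2 to the bovine assembly ARS-UCD1.2, and quantified transcripts with RSEM; the submitters' notes name DESeq2 1.4.5 for their test. The deposited TPM values, 1 per transcript and library, were summed here by gene ID. Of 17932 gene IDs, 17696 matched a RefSeq table (ARS-UCD2.0), used for symbols only, as were all 84 of the members. The authors' estimated count columns are filled for 76 rows, 0 of them members, and were not used, so no count model was fitted. The study gives read totals per library, but the number of reads behind a single TPM value is not recoverable, and counting error was therefore not estimated. Whether strand was used in counting is not given in the sources used here.

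The groups were compared with limma 3.58.1 (lmFit and eBayes with trend, R 4.3.3) on log2(TPM + 1), for the 13228 genes that reached a TPM of 1 in 4 or more libraries, and p-values were adjusted over all of them by the Benjamini-Hochberg method. Intervals are 95% intervals of that fit. The step was tested on simulated data. Each library is 1 calf. Lists (core subunits, paralogs, ribosomal proteins with other symbols, elongation and TOP genes, initiation, assembly, mitochondrial ribosome, mTORC1, and cell type markers) are described by counts and medians. Members and lists were chosen with earlier results of these data known. Named members were the 10 most and 5 least abundant, the 5 largest and 5 smallest log2 fold changes, paralogs with partners, stalk genes and the 5 most and 5 least variable over the 7 libraries other than CON4. From each other list, up to 2 genes with the smallest p could be named; not all are printed. Alternatives changed the pseudocount (0.1), filter, scaling, variance model, library weights, replicate block and libraries left out (17 in all), and 1 was added after seeing the data. Python 3.11.15, numpy 2.4.6, pandas 2.3.3 and matplotlib 3.10.9 were used. RPL41, RPL39L and GAS5 were not analysed here. Results for a pair of further genes are not reported here.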

Additional observations from a re-analysis of the deposited data

Results flagged for a closer look

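Dixon's ratio of the gap to the whole range was used to look for a single calf far from the others. It was taken over 84 groups of 4 calves, from named genes and library measures and not from all members, and 9 met the criterion. At 1 in 20 the count would be 4.2. That figure is no chance level here, as several named genes were chosen by rules that depend on CON4. In CON4, RPL11 was at 5099 TPM, RPL23A at 4121 TPM, RPL3 at 2077 TPM, RPL4 at 2457 TPM, RPS21 at 6524 TPM and RPS29 at 16318 TPM, each far above the other CON calves. In the DCLI group, DCLI4 stood above its group in the share of TPM held by all 84 genes (24.1%) and in the share held by the small subunit (11.1%). RPL22 in DCLI1, at 979 TPM, lay below the other DCLI calves. Marker sums in DCLI4 were 27.0 TPM for B cells and 438 TPM for crypt stem cells, the latter the highest of the DCLI libraries, and their part was not tested.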

How the results depend on the processing

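No member was called at an adjusted p under 0.05, or reached an unadjusted p under 0.05, under any of the 17 alternatives or the added one. The median log2 fold change of the members ranged from -0.29 (without CON2) to 0.02 (array weights), and the difference in their share of TPM from -5.35 to -0.245 percentage points over the fits that left out 1 calf. Over all genes, 9 were called without CON2, 1 without DCLI1 and 0 in the other fits. Higher and lower members numbered 5 and 79 on the TPM scale, 10 and 74 with median-ratio size factors, 3 and 81 with all other genes set to an equal sum, 44 and 40 with equal summed member TPM, with or without CON4, and 52 and 32 with array weights. The split with equal summed member TPM is largely set by that scaling. Some estimates changed sign: RPL10L was at -0.054 with all other genes set to an equal sum and -0.13 with array weights, RPL36AL at -0.050 with all other genes set to an equal sum, and RPS20, at -0.37 with equal weights, at 0.0016 with array weights. With 1 CON calf left out in turn, RPL10L ranged from -0.23 to 0.18, RPL36AL from -0.078 to 0.10 and RPL22L1 from -0.055 to 0.34, and with 1 DCLI calf left out RPL10L lay between -0.11 and 0.14 and RPL36AL between -0.00088 and 0.051. The cause was not tested. Calves with the same number were not paired (correlations of their deviations 0.05, -0.04, -0.03 and -0.20, none the best of its library), and the replicate block called 0 members, with 845 genes at an unadjusted p under 0.05 against 937 without it. With 4 calves a group, changes under a log2 fold change of about 1 are hard to detect, and larger ones were not called in the main fit either. There, 0 of the 13228 genes tested had an adjusted p under 0.05. Among them were the 10 enterocyte genes, with a median log2 fold change of 1.17.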
